A study of Mus musculus with 2 samples.

Results

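The genes described here are 10 genes known from macrophages that clear aged red blood cells and return their iron to the blood: Hmox1, Slc40a1, Mrc1, Fcna, Cd163, Cd5l, Spic, Vcam1, Blvrb and Apoe. Every probe set whose platform gene symbol was one of these names was taken, which gave 14 of the 45101 probe sets on the array, and 10 of 18193 genes. The genes were selected on the difference between these same 2 arrays, beginning with Hmox1, Mrc1, Slc40a1 and Fcna at the upper end of the ranking, so their differences are a description and are not tested.

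The study profiled regulatory T cells (Tregs) of mice, purified by flow cytometry as cells positive for both CD25 and Foxp3, on single-colour Affymetrix arrays. One array held RNA of Hopx-/- cells and 1 array held RNA of Hopx-sufficient cells. In both groups the Tregs had been induced in vivo through dendritic cells and were collected after immunization. Hopx encodes a small homeodomain protein that does not itself bind DNA. The age of the mice, the number of animals behind each array, the deleted part of Hopx and the purity of the sorts are not given in the sources used here. With 1 array per genotype there is no replicate error, no test and no p-value, and genotype cannot be told apart from animal, sort or hybridization.

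Macrophages of the splenic red pulp and of the liver engulf senescent erythrocytes, open the haem ring with haem oxygenase and export the freed iron through ferroportin. In mice, the development of the red pulp macrophages depends on the transcription factor SPI-C, a relative of PU.1. Scavenger receptors and lectins on the same cells take up haemoglobin complexes, glycoproteins and cell debris. None of these functions defines a T cell, and the gate on CD25 and Foxp3 was meant to hold T cells alone.

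The series tests a transcriptional regulator, so the stretch before the transcription starts of the 10 genes was read in the RefSeq promoter table (GRCm38.p6). The shared direction of these genes follows from the way they were chosen. Motifs were chosen after the values were seen, so the counts are a description. The promoter table matched 7 of the 10 genes (Mrc1, Fcna, Cd5l, Cd163, Apoe, Blvrb and Spic) with 10 start sites. The 250 bases before each start were searched on both strands. The letters GAGGAA, the core bound by PU.1 and SPI-C, occurred before 5 of the 10 starts, against 23.3% of all 32841 starts in the table. These starts belong to 4 of the 7 genes: Apoe, at more than 1 start, Cd5l, Fcna and Mrc1. The stretches of the 3 scavenger and lectin genes with a match are shown, since these genes were among those furthest apart between the arrays. Each reads 5′ to 3′ on the gene's strand and ends just before the start, and capitals mark GAGGAA or its reverse complement.
Mrc1, chr2:14229164-14229413, plus strand: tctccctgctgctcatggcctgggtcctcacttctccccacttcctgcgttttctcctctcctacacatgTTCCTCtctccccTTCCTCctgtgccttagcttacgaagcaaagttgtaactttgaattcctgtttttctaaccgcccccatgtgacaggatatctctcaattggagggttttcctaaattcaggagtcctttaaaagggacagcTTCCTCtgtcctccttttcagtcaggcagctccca
Fcna, chr2:25627975-25628224, minus strand: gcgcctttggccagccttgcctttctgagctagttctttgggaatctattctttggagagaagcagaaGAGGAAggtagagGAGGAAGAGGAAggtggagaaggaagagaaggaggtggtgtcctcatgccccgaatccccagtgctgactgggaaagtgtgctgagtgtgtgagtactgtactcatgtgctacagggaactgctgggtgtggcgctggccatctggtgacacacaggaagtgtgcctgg
Cd5l, chr3:87357631-87357880, plus strand: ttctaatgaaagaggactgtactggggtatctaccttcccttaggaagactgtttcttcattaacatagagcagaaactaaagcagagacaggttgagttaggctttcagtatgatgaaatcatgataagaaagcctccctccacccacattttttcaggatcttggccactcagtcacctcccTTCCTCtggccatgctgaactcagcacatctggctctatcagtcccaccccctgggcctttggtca
Mrc1 and Fcna each held 3 matches and Cd5l held 1. In Fcna, 2 of the matches adjoin within a purine-rich run. Other motifs were searched in the same way, and no match of one overlapped a match of another. The letters TGACNNNGC, bound by Nrf2, were found before 0 of the 10 starts, against 10.2% of all starts. The number of starts is too small to tell 0 from that share, and Hmox1, Slc40a1 and Vcam1 were not searched. TGCTGAG, part of the MARE element read by the haem-sensing repressor Bach1, stood before 3 of the 10 starts (Cd5l, Fcna and Spic), against 6.21% of all starts. The interferon-type GAAANNGAA stood before 1 start of Apoe, against 7.13% of all. The longer full forms of these last 2 elements occurred before 0 of the 10 starts, against 0.134% and 2.98% of all. TATAAA was found before 1 start (Apoe), against 12.4% of all, and CCAAT before 2 (Cd163 and Mrc1), against 33.9%. The number of CpG pairs in these stretches varied between the genes, with 0 in Cd163 and Cd5l, 1 in Spic, 3 in Fcna and Mrc1, 8 to 10 at the starts of Apoe, and 3 and 18 at those of Blvrb. At most 5 were found before 60% of the 10 starts, against 49.6% of all starts. The counts rest on 10 starts of 7 genes, and no excess over the share of all starts, that of GAGGAA included, was tested. A match of letters does not show that a factor binds there, and a lack of one concerns only this window and the 7 genes with a start.

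The deposited values are log-scale values centred on the mean of both arrays for each probe set, so the Hopx-/- value and the Hopx-sufficient value of a probe set mirror each other, and their difference is the measurement. Base 2 is assumed, since the base is not stated. No signal level is kept, so whether a transcript was detected cannot be given. Foxp3 differed by 0.28, Cd3e, a chain of the T cell receptor complex, by 0.23, Il2ra, which encodes CD25, by -0.05 and Cd4 by -0.01. Whether the cells carried T cell transcripts at a high level cannot be checked from such values. Hopx stood 35.4-fold lower on the Hopx-/- array, as its label requires. The standard deviation of the difference over all genes was 0.21 and their median was 0.01. Probe sets of the same gene scattered around their gene's mean with a pooled standard deviation of 0.18 (9010 genes with 2 or more probe sets). That spread and the control probe sets described at the end are the measures of error at hand, and some controls differed by more.

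All 10 genes were higher on the Hopx-/- array, where 51.4% of all genes had a difference above 0. The median of their differences was 0.52 (1.43-fold) against 0.01 over all genes, and they ran from 0.32 to 0.94. Of the 10, Hmox1, Mrc1, Slc40a1 and Fcna were at least 1.5-fold higher (4 of 10), a size reached by 57 genes or 0.313% of all genes. The other 6 of the 10 genes lay between 0.32 and 0.55. No gene of the 10 reached 2-fold by its mean, a size that 0.011% of all genes reached. At the lowest threshold tried, the one that 4.36% of all genes passed, the count was 9 of 10, all but Blvrb. Since the choice of genes rests on this contrast, nothing is read from these counts beyond the sizes themselves.

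**Figure D1:**
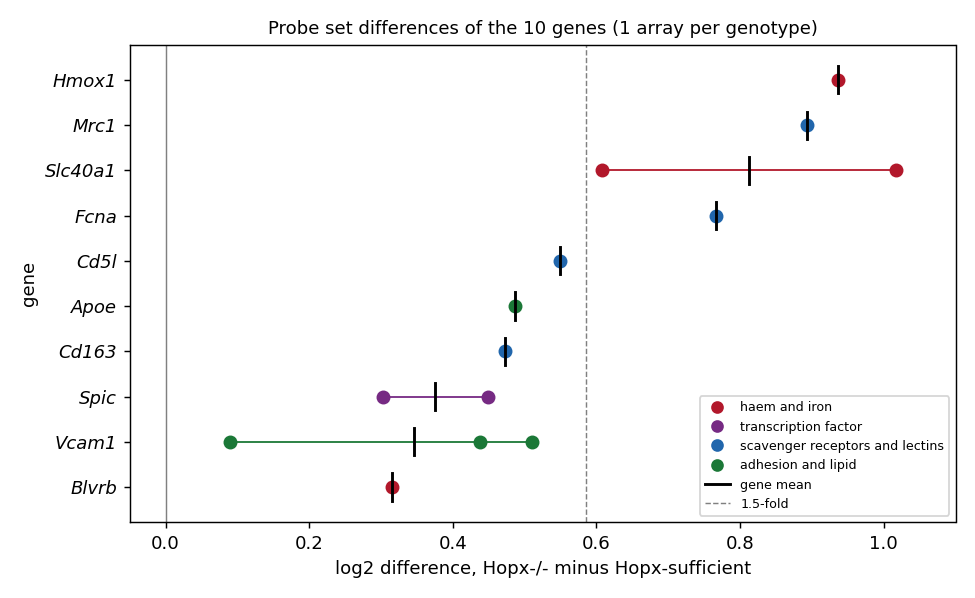
Log2 difference between the Hopx-/- and the Hopx-sufficient array (x axis) for each of the 14 probe sets (points) of the 10 genes (y axis), coloured by role, with the gene mean as a black bar and the range of probe sets as a line. All points lie right of 0, and Slc40a1 and Vcam1 have the widest ranges, 0.41 and 0.42.

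The genes of haem breakdown and iron export came first and last in the order. Hmox1 encodes haem oxygenase, the enzyme that opens haem and frees its iron, and is inducible by haem and oxidative stress. Its 1 probe set stood at 0.47 on the Hopx-/- array and -0.47 on the Hopx-sufficient array, a difference of 0.94 (1.91-fold). It ranked 3 among all genes from the highest, above every other gene of the 10. Slc40a1 encodes ferroportin, which carries iron out of the cell. One of its probe sets had values of 0.51 on the Hopx-/- array and -0.51 on the Hopx-sufficient array, and the other had 0.30 on the Hopx-/- array and -0.30 on the Hopx-sufficient array. Both were higher on the Hopx-/- array, but their differences, 1.02 and 0.61, were themselves 0.41 apart, so the mean of 0.81 (1.76-fold, SD 0.29 over 2 probe sets) carries a wide spread. The larger one was the single probe set of the 14 that passed 2-fold (2.02-fold). Blvrb encodes biliverdin reductase B. With 0.16 on the Hopx-/- array and -0.16 on the Hopx-sufficient array it was the least different of the 10 genes (0.32, 1.24-fold), at rank 847.

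The scavenger receptors and lectins spread over the whole upper part of the ranking. Mrc1, the mannose receptor of macrophages and some endothelia, had 0.45 on the Hopx-/- array and -0.45 on the Hopx-sufficient array (difference 0.89, 1.86-fold), at rank 5. Fcna encodes ficolin A, a lectin that binds microbial sugars and starts the lectin pathway of complement. It stood at 0.38 on the Hopx-/- array and -0.38 on the Hopx-sufficient array (0.77, 1.70-fold), at rank 14. Cd5l encodes a secreted scavenger-receptor protein of tissue macrophages. Its values were 0.27 on the Hopx-/- array and -0.27 on the Hopx-sufficient array, and its difference of 0.55 (1.46-fold, rank 77) fell just short of 1.5-fold. Cd163, the receptor that takes up haptoglobin-haemoglobin complexes, had 0.24 on the Hopx-/- array and -0.24 on the Hopx-sufficient array (0.47, 1.39-fold, rank 174). Each of these 4 genes had 1 probe set, so no second reading of them exists on this array. The gap between Mrc1 and Fcna, and that between Cd5l and Cd163, is smaller than 0.18, the pooled standard deviation of probe sets around their gene's mean.

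Spic, the transcription factor gene, had 2 probe sets. One gave 0.22 on the Hopx-/- array and -0.22 on the Hopx-sufficient array, and the other gave 0.15 on the Hopx-/- array and -0.15 on the Hopx-sufficient array. Their mean difference was 0.38 (1.30-fold, rank 491), with the probe sets at 0.45 and 0.30. The suffixes of both probe sets mark them as able to bind more than 1 transcript, so other transcripts may contribute. Spi1, which encodes PU.1, the relative of SPI-C in all macrophages and in B cells, differed the other way (-0.15, 1 probe set, named after its value was seen).

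Vcam1 and Apoe are less tied to macrophages, since endothelial and stromal cells also use Vcam1, an adhesion molecule for leukocyte integrins, and many cells make Apoe, a lipid carrier. Apoe had 0.24 on the Hopx-/- array and -0.24 on the Hopx-sufficient array (0.49, 1.40-fold, rank 145), from a probe set that can bind several transcripts of the gene. The 3 probe sets of Vcam1 gave 0.26, 0.22 and 0.05 on the Hopx-/- array, against -0.26, -0.22 and -0.05 on the Hopx-sufficient array. The first and second were close to each other, with differences of 0.51 and 0.44, while the third differed by 0.09, above 65.9% of all probe sets and the lowest of the 14. The mean for Vcam1 was 0.35 (1.27-fold, SD 0.22 over 3 probe sets, rank 634). Over all members, 14 of 14 probe sets were higher on the Hopx-/- array, against 50.6% of all probe sets with 1 gene symbol, and 5 of 14 were at least 1.5-fold higher, against 0.544%.

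**Figure D2:**
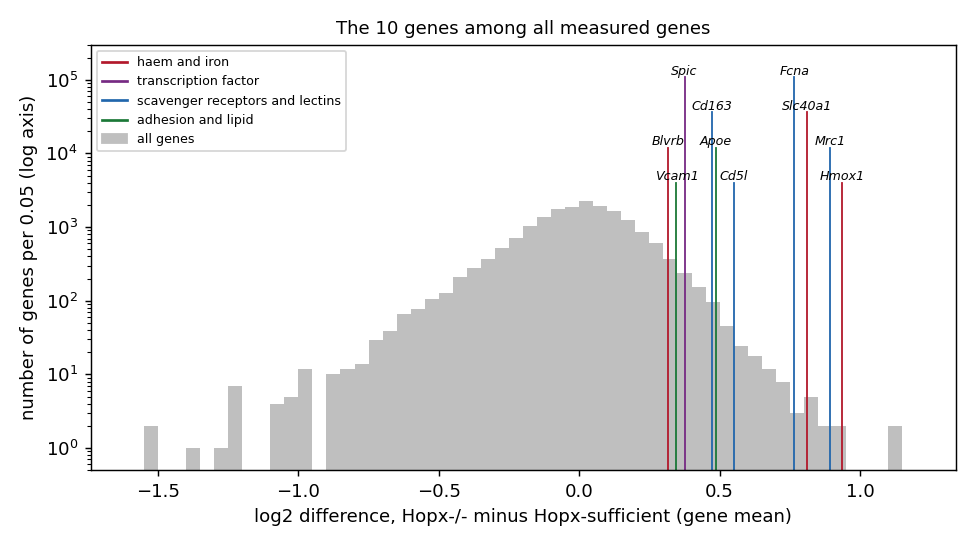
Histogram of the log2 difference, Hopx-/- minus Hopx-sufficient, of all genes (grey, log count axis, bins of 0.05), with the 10 genes as coloured lines by role. All 10 lie right of the middle of the distribution, and Hmox1, Mrc1, Slc40a1 and Fcna lie in its sparse upper end; 5 genes below -1.6 are outside the plot.

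In the ranking of 18193 genes, 7 of the 10 lay in the highest 1% and the other 3 (Spic, Vcam1 and Blvrb) in the highest 5%. With 1 array per genotype, the order of the genes cannot be established. Apart from the step between Fcna and Cd5l, at 0.22, every step of the order was smaller than 0.18. That value is the pooled standard deviation of probe sets around their gene's mean. It is not an error between arrays, so it does not resolve the larger step either.

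Other genes of the haem and iron pathway went both ways, at about the share of all genes. Of 22 partner genes, listed with earlier results of these data known, 20 were measured, with a median of -0.02. Of these, 9 were higher (45%, against 51.4% of all genes) and 11 lower. At least 1.5-fold higher were 0 of them, against 0.313% of all genes. Slc11a1, the iron and manganese transporter of the phagosome membrane, was the highest (0.30), followed by Hpx, which encodes the haem scavenger hemopexin (0.26), while Flvcr1, a haem exporter gene, was the lowest (-0.22). The namesakes of 2 of the 10 genes were not higher. Hmox2, the constitutive haem oxygenase gene, differed by -0.08 and Blvra, the other biliverdin reductase gene, by -0.16. Fth1, the ferritin heavy chain gene, differed by 0.13 and Bach1 by 0.11. These 4 were named after their values were seen. Among 9 measured genes of the Nrf2 response, which also drives Hmox1, 2 were higher and 7 lower with a median of -0.14. The furthest from 0 were Txnrd1 (-0.34), Gsr (-0.27) and Nqo1 (-0.21), all of them redox enzyme genes.

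Other tissue macrophage markers were higher in most cases but by less. Of 27 measured markers (29 listed), 23 were higher (85.2%, against 51.4% of all genes) and 4 lower on the Hopx-/- array. Their median was 0.11 and their range -0.15 to 0.48. At least 1.5-fold higher were 0 of them, against 0.313% of all genes. Lgmn, a lysosomal protease gene, led at 0.48, followed by Selenop, which encodes a selenium carrier (0.46), and Treml4, a receptor gene of red pulp macrophages (0.45). The complement genes C1qb, C1qc and C1qa differed by 0.42, 0.41 and 0.37. Adgre1, a defining surface marker gene of mouse macrophages, differed by 0.36, Cd68 by 0.32 and Csf1r, the receptor gene for macrophage colony-stimulating factor, by 0.25. The 4 lower markers were Spi1, Msr1 (-0.11), Vsig4 (-0.06) and Marco (-0.05), and Clec4f, a marker of liver Kupffer cells, stood at 0.03. The genes from C1qb to Clec4f in this account were named after their values were seen. Because the centred values hold no levels, the summed signal of these markers in each group and the markers at or near 0 signal cannot be given, and their part in the differences of the 10 genes was not tested. In sorted bulk RNA, more macrophages and more of these transcripts per cell cannot be told apart.

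Counts of the remaining lists stand beside 51.4% of all genes above 0 and 0.313% at least 1.5-fold higher. Markers of monocytes and dendritic cells went both ways (9 of 16 higher, 7 lower, median 0.02), led by Cd14, a lipopolysaccharide co-receptor gene (0.51), Lyz2, which encodes lysozyme (-0.38), and Cd209a, a lectin gene (0.32). Endothelial markers, relevant to Mrc1 and Vcam1, were higher in 7 and lower in 7 of 14 cases (median -0.01), with Pecam1 at 0.44, Plvap at -0.25 and Eng at 0.17. Stromal markers, relevant to Vcam1 and Apoe, had 6 higher and 6 lower of 12 and a median of 0.00, with Pdgfra at 0.39, Madcam1 at -0.35 and Col1a2 at 0.20. Erythroid markers lay close to 0 (4 of 9 higher, 4 lower and Klf1 at 0, median 0), apart from Hemgn at -0.25. Alas2, the haem synthesis gene of red cell precursors, differed by 0.08 and Car2 by 0.04. Neutrophil markers were higher in 3 of 8 cases with a median of -0.07, and Mpo (-0.21), S100a8 (0.14) and Cxcr2 (-0.11) differed most. Of 9 plasma protein genes of hepatocytes 5 were higher and 4 lower (median 0.03), and the list held both extremes, Fgb, a fibrinogen chain gene, at 0.78 and Ahsg at -0.68, with Alb at -0.34. B cell markers were lower in 7 of 8 cases (median -0.07), chiefly Cd79a (-0.41), Ebf1 (-0.39) and Ms4a1 (-0.20). T cell and Treg markers were higher in 9 of 11 cases with a median of 0.23, led by Ikzf2 (0.37), Ctla4 (0.34) and Cd5 (0.33). The T cell markers thus had a higher median than the tissue macrophage markers, and both stood below the 10 genes, whose median was 0.52. The mean and the median of a list differed in sign for endothelial markers (mean 0.02) and for hepatocyte genes (mean -0.01). The differences between these lists were not tested.

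**Figure D3:**
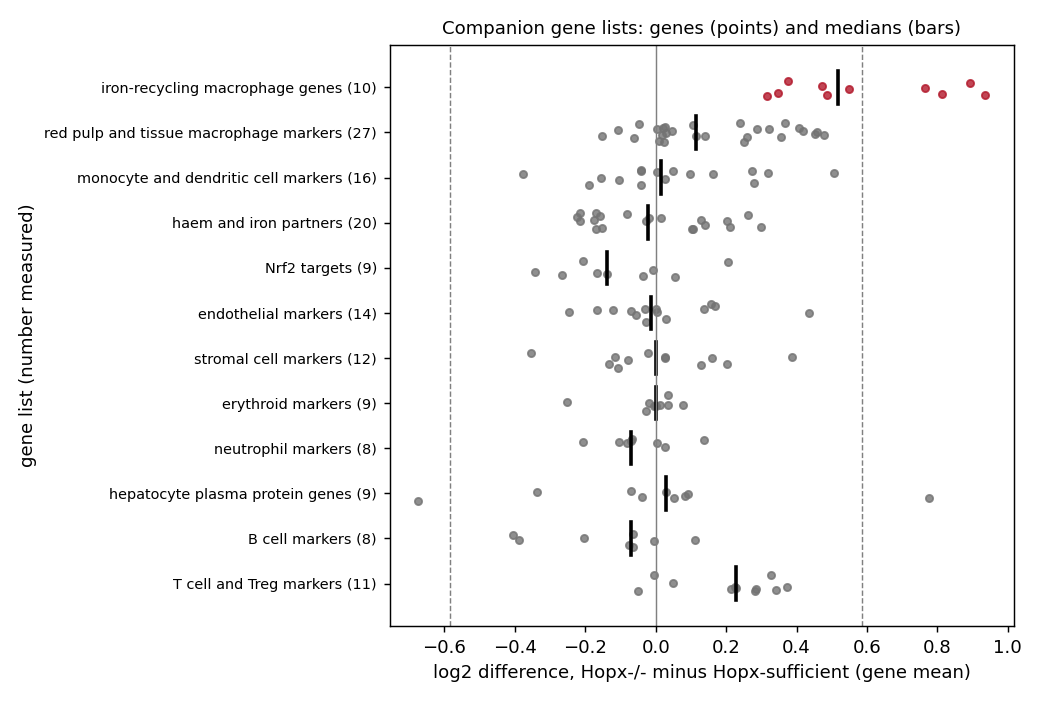
Log2 difference, Hopx-/- minus Hopx-sufficient, of every measured gene (points) in the 10-gene set (red, top row) and in the companion lists, with list medians as black bars and dashed lines at 1.5-fold. The red points lie between 0.32 and 0.94, the tissue macrophage markers between -0.15 and 0.48, and 2 hepatocyte genes are the companion genes past 1.5-fold.

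Control probe sets gave a scale for technical differences on the same arrays. The 18 hybridization spike-in probe sets ranged from -0.21 to 0.01, below all 10 genes. For the bacterial transcripts that are added as poly-A controls, 27 probe sets spanned -0.16 to 0.79 (median 0.03) and 1 of them was 1.5-fold higher, so a difference of the size of Fcna or Slc40a1 occurred once in probe sets that carry no mouse sequence. Another 4 of the 27 lay between 0.33 and 0.51, within the span of the 6 genes below 1.5-fold, so 5 of 27 exceeded Blvrb, the lowest of the 10. These 5 all belong to the transcripts dap and thr, chiefly at the 5′ end, so they are not independent readings. The 5′ probe sets of thr differed by 0.79 and 0.51, its 3′ probe sets by 0.02 and 0.07. For dap the values were 0.43 and 0.33 at the 5′ end and 0.13 and 0.14 at the 3′ end. Controls placed at both ends of a transcript show whether RNA was degraded, and the shift at the 3′ end exceeded that at the 5′ end by 0.53 for the transferrin receptor (-0.28 against -0.81), by 0.19 for pyruvate carboxylase, by 0.00 for beta-actin, by -0.09 for Gapdh and by -0.11 for 18S ribosomal RNA. The 18S probe sets of the 3′ end, the 5′ end and the middle were themselves higher on the Hopx-/- array, by 0.35, 0.46 and 0.46. These differences are about as large as those of Vcam1 and Cd163. Whether RNA quality or labelling had a part in the values of the 10 genes was not tested.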

How the data were processed

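RNA of 2 sorted Treg samples, 1 per genotype, was measured on 1 array each, and groups were taken from the sample titles. The authors deposited log-scale values, read here as log2, that are centred per probe set on the mean of both arrays. This was tested on the table, where the columns sum to 0 within 1e-06 in every row. Summarisation, normalization and log base are not given in the sources used here. Probe sets with 1 symbol in the platform annotation (34945) were kept and symbols updated by gene ID through a RefSeq gene table (GRCm38.p6), in which 34741 matched. The difference was Hopx-/- minus Hopx-sufficient, without centring, and the gene value was the mean over probe sets. A size of 1.5-fold was a rule of description. No test was made. The 10 genes and all companion lists were chosen with earlier results of these data known. Named were all 10 genes, the 3 most different and any 1.5-fold different genes of each list, and sort and lineage markers; others are marked as named after their values were seen. Promoter motifs were chosen after the values were seen. The arithmetic of averaging was checked by adding known shifts to shuffled values, which says nothing about error between arrays. Alternatives covered centring, probe set summary and choice, thresholds and log base. Python 3.11.15, numpy 2.4.6, pandas 2.3.3 and matplotlib 3.10.9 were used. The number of arrays limits the precision.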

Additional observations from a re-analysis of the deposited data

How the results depend on the processing

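Each of the 10 genes stayed higher on the Hopx-/- array under every alternative that gave it a value. This was fixed beforehand, since all 14 probe sets had differences above 0 and centring shifted values by only 0.01. Centring, the median of the probe sets and leaving out the probe sets of finest step moved none of them by as much as 0.18. With the most different probe set, Slc40a1 was at 1.02. Had natural logs been deposited, the differences would be 1.35 for Hmox1, 1.29 for Mrc1, 1.17 for Slc40a1, 1.11 for Fcna, 0.79 for Cd5l, 0.70 for Apoe and 0.68 for Cd163, the median 0.75 and the count at 1.5-fold 7 of 10, which 1.92% of all genes would then reach. That count was 0 at 2-fold and 9 at the lowest threshold tried. Without probe sets of the _x_at, _s_at and _a_at kinds, Apoe and Spic had no value, 3 hepatocyte and 0 B cell genes were higher. With the median of the probe sets, 1 Nrf2 gene was higher. List medians within 0.02 of 0 (endothelial, erythroid, monocyte and stromal) changed sign under at least 1 alternative. No probe set of the 10 genes carried several symbols, so that alternative changed nothing. No array could be left out. No paired analysis was possible because there is no second array of either genotype. Middle-sized steps between the deposited values, which place at least 1 uncentred value below 8, occurred in 6 of the 14 probe sets. They occurred in 30.9% of all probe sets. The finest steps, which mark the lowest signals, occurred in 0 of the 14 and in 10.4% of all. Both kinds mark a value below 8, so both shares belong beside the 6 of 14. The 14 are too few to set apart from all probe sets, and detection over background is unknown.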

Other observations

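The genes that neighbour the 10 genes on their chromosomes went both ways, at about the share of all genes. The nearest measured protein-coding gene on each side was taken, 20 in all, with a median of 0.01. Of these, 10 were higher and 10 lower on the Hopx-/- array, against 51.4% of all genes higher. At least 1.5-fold higher were 0 of them, against 0.313% of all genes. Distances ran from 3 bases (Tomm40 to Apoe) to 881012 bases (Slc39a10 to Slc40a1). The neighbours of Hmox1, Mrc1 and Slc40a1 stood lower or near 0, whereas both neighbours of Fcna were higher (Tmem141 by 0.33 and Lcn8 by 0.14). Next to Hmox1 (0.94), Mcm5, a subunit gene of the replicative helicase, differed by -0.55 and Tom1 by 0.04. Next to Slc40a1 (0.81), Wdr75, a gene of ribosome assembly, differed by -0.47 and the zinc transporter gene Slc39a10 by -0.21. On the sides of Apoe (0.49), Tomm40, which encodes the import pore of the outer mitochondrial membrane, differed by -0.58 and Apoc1, another apolipoprotein gene, by -0.30. Apoc1 and Apoe each had 1 probe set. Around Cd5l (0.55) both neighbours were higher, Fcrl1 by 0.29 and Fcrls by 0.24. On 1 side of Cd163 (0.47), at 242601 bases, Vmn2r26, a vomeronasal receptor gene with 1 probe set, differed by 0.52. All of these neighbours were named after their values were seen.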
